A study of Mus musculus with 20 samples.

Results

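Deletion of Zmiz1 was followed in sorted DN3 thymocytes at an early and a late time, and the question here was which transcriptional responses were seen only 8 weeks after deletion, only 43 to 44 h after it, or at both. The contrast took 14 of the 20 libraries of the series, in 4 groups, and set the effect (DeltaTamCre minus TamCre) against the effect (DeltaMxCre minus MxCre) for every gene, each effect within its own library kit. All mice were C57BL/6, and no source used here gives their ages. MxCre mice carried the interferon-inducible Cre without a floxed allele, and DeltaMxCre mice were MxCreZmiz1f/f. Both received 40 mcg pI-pC, an interferon-inducing double-stranded RNA, 5 times at intervals of 2 days, and cells were sorted after 8 weeks (3 mice per group). TamCre mice carried Rosa26CreERT2, a Cre that tamoxifen activates in all tissues, and DeltaTamCre mice were Rosa26CreERT2Zmiz1f/f. Both received 0.2 mg/g tamoxifen and were sorted at 43 to 44 h (4 mice per group). The controls of each model thus had the same Cre and inducer as the deleted mice, and the models shared no control. Neither Cre was restricted to thymocytes, so the DN3 cells also came from mice in which other cells could delete Zmiz1.

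DN3 thymocytes lack CD4 and CD8, have rearranging T cell receptor beta genes and depend on Notch1 and on signals through the pre-T cell receptor. ZMIZ1 is a nuclear coregulator related to the PIAS proteins, and the title of the series names its interaction with Notch1 and the Myc gene. DN3 is a transient stage that progenitors from the bone marrow keep refilling by way of CD44-positive earlier stages.

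Expected counts per library totalled 16537447 to 19133149 in MxCre, 12829780 to 18348755 in DeltaMxCre, 71548171 to 101425251 in TamCre and 52615332 to 72477238 in DeltaTamCre. The 8-week libraries were made with a SMARTer kit from 50 ng of RNA and the 43 to 44 h libraries with a TruSeq kit from 100 ng, so that time, Cre, inducer, kit and depth cannot be told apart in the contrast. The labels describe the sorted cells as CD44-positive and CD25-negative, the reverse of the textbook DN3 phenotype. The CD25 gene Il2ra had 2206 to 5886 CPM (counts scaled to library size, with TMM factors within each kit), whereas Cd44 had 0.551 to 7.23 CPM. All 11 DN3 markers on the list were above 1 CPM in every group mean, and their summed level was 17130 to 19690 CPM in the 8-week model and 10990 to 13480 CPM in the 43 to 44 h model. Library TamCre 1 stood apart on the first principal component of its kit, at -30.7 against -11.2 to 18.1 in the other 7, and library MxCre 3 had a median of 0.89 log2 above its group mean over 30 mitosis genes.

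Zmiz1 (mm10 chr14:25457875-25666743) fell in both models and by more at 8 weeks. It lay at 298, 360 and 334 CPM in MxCre and at 122, 132 and 116 CPM in DeltaMxCre. In the 43 to 44 h model it lay at 324, 293, 272 and 282 CPM in TamCre and at 184, 220, 169 and 172 CPM in DeltaTamCre. No deleted library overlapped its controls in either model. The log2 fold change was -1.42 ± 0.11 (SE, adjusted p = 1.15e-08) at 8 weeks and -0.65 ± 0.10 (adjusted p = 0.0405) at 43 to 44 h, by the quasi-likelihood test of edgeR, adjusted over all genes after Benjamini and Hochberg. The difference of these effects, 0.73 ± 0.15, passed the same test over all 20 libraries (adjusted p = 0.0315) and did so in 13 of the 23 alternative settings. The effect at 43 to 44 h was 45.7% of the 8-week effect on the log2 scale. In bulk samples fewer cells with the transcript and less transcript per cell cannot be told apart.

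Across all genes the numbers of calls by edgeR differed widely between the 2 deletions, whereas DESeq2 gave 691 at 8 weeks and 545 at 43 to 44 h. In edgeR at 8 weeks 399 of 13557 genes passed (2.94%), 227 higher (1.67%) and 172 lower (1.27%). At 43 to 44 h 12 of 13460 genes passed (0.0892%), 8 higher (0.0594%) and 4 lower (0.0297%), although 2153 genes had an unadjusted p under 0.05 (16%; 8.04% higher and 7.96% lower). At 8 weeks 2239 genes had one (16.5%; 7.8% higher and 8.71% lower). The median SE of a gene's log2 fold change was 0.26 at 8 weeks, 0.11 at 43 to 44 h and 0.29 for the difference. The early edgeR count fell when any 1 of the 8 libraries was left out. It was 0 without TamCre 3 or TamCre 4, 1 without DeltaTamCre 4 and 2 without TamCre 1. It was 4 without DeltaTamCre 3, 5 without TamCre 2 or DeltaTamCre 2, and 8 without DeltaTamCre 1. All early calls but Evl, Il31ra and Jakmip1 lay just under the threshold, at an adjusted p of 0.0405 to 0.0437. The 8-week count was 138 without DeltaMxCre 2, 173 without DeltaMxCre 3 and 183 when the spread was taken from the 6 libraries of the model alone.

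The difference itself passed for 23 of 13895 genes (0.166%), of which 19 had the higher effect at 43 to 44 h (0.137%) and 4 the lower (0.0288%). At an unadjusted p under 0.05 the count was 943 (6.79%; 3.92% higher and 2.87% lower). Of the 23 genes, 22 were 8-week only, meaning that the 8-week effect and the difference passed and the 43 to 44 h effect did not, and 1, Zmiz1, changed in the same direction by different amounts. No gene was 43 to 44 h only and none passed with opposite signs, by edgeR, limma voom or DESeq2. At an unadjusted p under 0.05 for each part, the same patterns held 564, 48 and 15 genes, respectively. The count of 23 moved with single libraries: it was 52 without MxCre 3, 11 to 13 without MxCre 2, DeltaMxCre 2, TamCre 2, TamCre 3, TamCre 4 or DeltaTamCre 2, and 15 without TamCre 1. It was 79 with DESeq2 and 5 with limma voom.

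**Figure D1:**
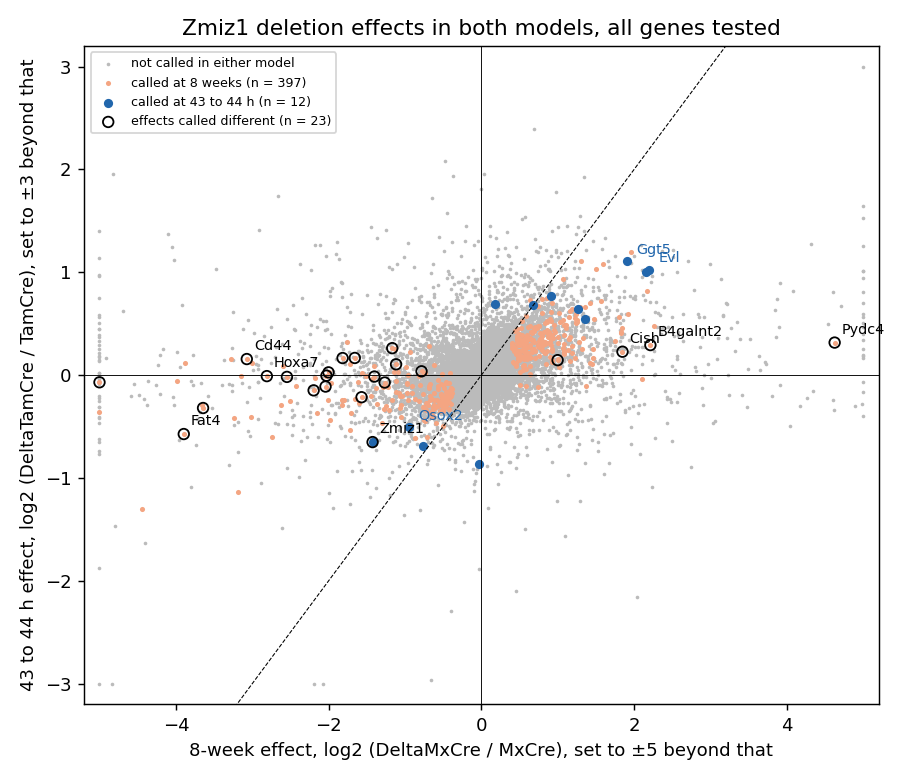
Log2 effect of Zmiz1 deletion at 8 weeks (horizontal, values beyond 5 drawn at 5) against 43 to 44 h (vertical, values beyond 3 drawn at 3) for the 12819 genes tested in all fits, 1 point per gene; the dashed line marks equal effects. The circled genes with different effects spread along the horizontal axis near 0 on the vertical one, and the 12 genes called at 43 to 44 h (blue) lie away from it.

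Of the 22 genes seen only at 8 weeks, 18 fell and 4 rose. They were chosen for a called difference and an early effect that did not pass, so their early values are a description and no separate evidence. None of the 22 had deleted and control libraries that were separate at 43 to 44 h, where the groups of 10.9% of all genes did not overlap. For 13 of them the 95% interval of the 43 to 44 h effect lay within 0.5 of 0 on the log2 scale, and 15 had the same sign in both models. Fat4 was the only one with an unadjusted p under 0.05 at 43 to 44 h. Sav1, Ptk7 and Myzap passed the difference in all 23 alternative settings, and Pydc4, Fat4, Hoxa7 and Maged1 in 22. The threshold separated close values: Rag1 and Cish had an adjusted p of 0.0497 for the difference, and just outside lay Ica1 (0.0504) and Pde7a (0.052).

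Transcription factors and a surface receptor of early progenitors were among the genes that fell only at 8 weeks. Hoxa7, a homeobox factor of blood progenitors (chr6:52215623-52218573), lay at 28.4, 26.4 and 17.1 CPM in MxCre and 2.87, 2.86 and 4.46 CPM in DeltaMxCre. At 43 to 44 h it was at 11.8, 15.5, 14.7 and 13.8 CPM in TamCre and 14.1, 13.03, 14.8 and 13.4 CPM in DeltaTamCre, so that the early groups lay within each other. Its effects were -2.81 ± 0.37 and -0.01 ± 0.11, with an adjusted p of 0.00156 for the difference of 2.76 ± 0.41. Bcl11a, a zinc-finger factor needed for lymphoid progenitors (chr11:24076564-24173558), was at 28.2, 29.2 and 15.4 CPM in MxCre against 7.06, 4.32 and 6.497 CPM in DeltaMxCre. It was at 12.6 to 16.5 CPM in TamCre and 11.9 to 16.02 CPM in DeltaTamCre, again overlapping. The effects of Bcl11a were -2.03 ± 0.31 and -0.01 ± 0.13 (adjusted p = 0.0136 for the difference). Cd44, the hyaluronan receptor that marks the earliest double-negative stages (chr2:102811141-102901669), was at 7.23, 6.00 and 3.78 CPM in MxCre and at 0.699, 0.755 and 0.551 CPM in DeltaMxCre. In TamCre it lay between 3.00 and 4.95 CPM and in DeltaTamCre between 3.73 and 4.93 CPM. Its difference was 3.19 ± 0.57 (adjusted p = 0.0136), while its 8-week effect did not pass when MxCre 1, DeltaMxCre 2 or DeltaMxCre 3 was left out (adjusted p = 0.0644 to 0.0887).

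These 3 genes belong to a list of 20 early progenitor and stem genes, 13 of which were tested in all fits. The 3 fell at 8 weeks, where 1.27% of all genes did, and the same 3 had a called difference, as 0.137% of all genes had in that direction. At 43 to 44 h 0 passed, and 5 were higher at an unadjusted p under 0.05, against 8.04% of all genes. The list's median log2 effect was -1.26 at 8 weeks, also with Tal1, which had no count in DeltaMxCre, set to its bound, and 0.16 at 43 to 44 h, against -0.04 and 0.02 over all 12819 genes. The list did not move as a block. Of its 20 genes, 11 in MxCre and 12 in DeltaMxCre had a mean under 1 CPM, Tal1 among them in both groups. Per library, the list's median log2 from the MxCre mean was 0.26, 0.05 and -0.21 in MxCre. In DeltaMxCre it was -0.64, -0.30 and -0.03, so that the groups overlapped. Kit, the stem cell factor receptor, had a mean of 93.8 CPM in MxCre against 112 CPM in DeltaMxCre, and Mycn means of 22.9 against 28.5 CPM. The list's summed level overlapped between MxCre (179.6 to 219 CPM) and DeltaMxCre (162 to 206 CPM), and in the early model it was 113 to 139 CPM in TamCre and 142 to 168 CPM in DeltaTamCre. The part of other cells in these values was not tested.

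Ptk7, Sav1 and Fat4 were also among the genes that fell only at 8 weeks. Ptk7, a pseudokinase receptor of planar cell polarity (chr17:46564451-46630049), had the smallest p of the difference. It was at 33.2, 30.9 and 43.8 CPM in MxCre and at 8.62, 8.90 and 9.41 CPM in DeltaMxCre. The early values were 32.4, 27.8, 33.96 and 34.2 CPM in TamCre and 35.0, 33.3, 29.7 and 32.8 CPM in DeltaTamCre, with no separation. The effect of -2.001 ± 0.22 at 8 weeks stood against 0.03 ± 0.09 at 43 to 44 h (adjusted p = 8.89e-05 for the difference, 95% interval of the early effect -0.17 to 0.22). Sav1, the scaffold of the Hippo kinases (chr12:69965009-69988141), was at 30.2, 29.8 and 37.5 CPM in MxCre against 8.93, 6.31 and 8.48 CPM in DeltaMxCre. It stayed between 21.2 and 26.4 CPM in all 8 early libraries, and its effects were -2.04 ± 0.27 and -0.11 ± 0.09 (adjusted p = 0.00124). Fat4, a giant cadherin that acts in planar cell polarity in mice (chr3:38884667-39011992), was at 21.99, 32.9 and 9.48 CPM in MxCre and 0.699, 1.94 and 1.54 CPM in DeltaMxCre. In the early model it was at 6.32, 4.81, 4.85 and 3.89 CPM in TamCre and 2.81, 4.87, 3.00 and 2.68 CPM in DeltaTamCre. One deleted library, DeltaTamCre 2, thus lay among the controls. The early effect of Fat4 was -0.57 ± 0.22 (unadjusted p = 0.0258, adjusted p = 0.247) against -3.90 ± 0.39 at 8 weeks.

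Rag1, which encodes a subunit of the recombinase that cuts antigen receptor genes (chr2:101638252-101649532), fell at 8 weeks from 3180, 4039 and 3321 CPM to 1861, 2010 and 2251 CPM. It lay between 480 and 638 CPM in TamCre and between 517 and 681 CPM in DeltaTamCre. The effects were -0.78 ± 0.11 and 0.04 ± 0.11, and the difference of 0.78 ± 0.17 passed in 9 of 23 alternative settings and in 4 of the 14 that left out a library. Of the 20 pre-TCR, CD3 and recombination genes, 1 rose (Lcp2, an adaptor of T cell receptor signalling) and 2 fell at 8 weeks (Rag1 and Cd3d), and none passed at 43 to 44 h, where 2 were higher and 2 lower at an unadjusted p under 0.05. Over all genes 1.67% rose and 1.27% fell at 8 weeks, and 8.04% and 7.96% were higher and lower at that unadjusted p early, so the early shares lie near the background. Cd3d, a CD3 chain, showed the opposite pattern to Rag1: its effects of -0.50 ± 0.11 and -0.49 ± 0.11 were alike, with a 95% interval of the difference from -0.33 to 0.27.

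The other genes that fell only at 8 weeks covered several functions. Maged1, a MAGE-family adaptor on the X chromosome, was at 22.2 to 39.0 CPM in MxCre and 5.201 to 9.93 CPM in DeltaMxCre, and at 20.3 to 32.6 CPM over the early libraries. Myzap, a junctional protein known from heart muscle, was at 50.4 to 57.7 CPM and 16.8 to 18.9 CPM in the 8-week groups and at 20.8 to 29.2 CPM in the early ones. Lrp1, an endocytic receptor, was at 196, 213 and 118 CPM in MxCre, at 51.1, 70.9 and 77.1 CPM in DeltaMxCre and at 41.2 to 62.7 CPM in the early libraries. In each of these genes the late groups were separate and the early ones overlapped. Fam131a and Btbd3 fell by 3.64 ± 0.74 and 2.55 ± 0.51 on the log2 scale, from control libraries that themselves spread from 2.48 to 12.9 CPM and from 6.44 to 25.6 CPM. Their differences passed in 10 and 7 of 23 alternative settings, and the 8-week call of Fam131a was lost without MxCre 2 (adjusted p = 0.069) and that of Btbd3 without DeltaMxCre 3 (adjusted p = 0.0602). The remaining genes of this kind, named after their values were seen, were Ccdc88a (an actin-binding protein), Nynrin, Gab1 (a docking protein of receptor kinases), Camkv (a kinase-like protein of vesicles), 9830001H06Rik and Tctn2, with 8-week log2 effects of -1.12 to -1.82 for the first 5. Tctn2, a protein of the ciliary transition zone, had 90 counts over the MxCre libraries and 0 over the DeltaMxCre libraries, at least 29.5-fold lower against a floor of 3 counts over the group, which covers counting error only. It lay between 0.826 and 1.53 CPM in all early libraries. Its 8-week call was lost without any 1 of the 6 libraries but MxCre 2 (adjusted p = 0.0579 to 0.149).

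**Figure D2:**
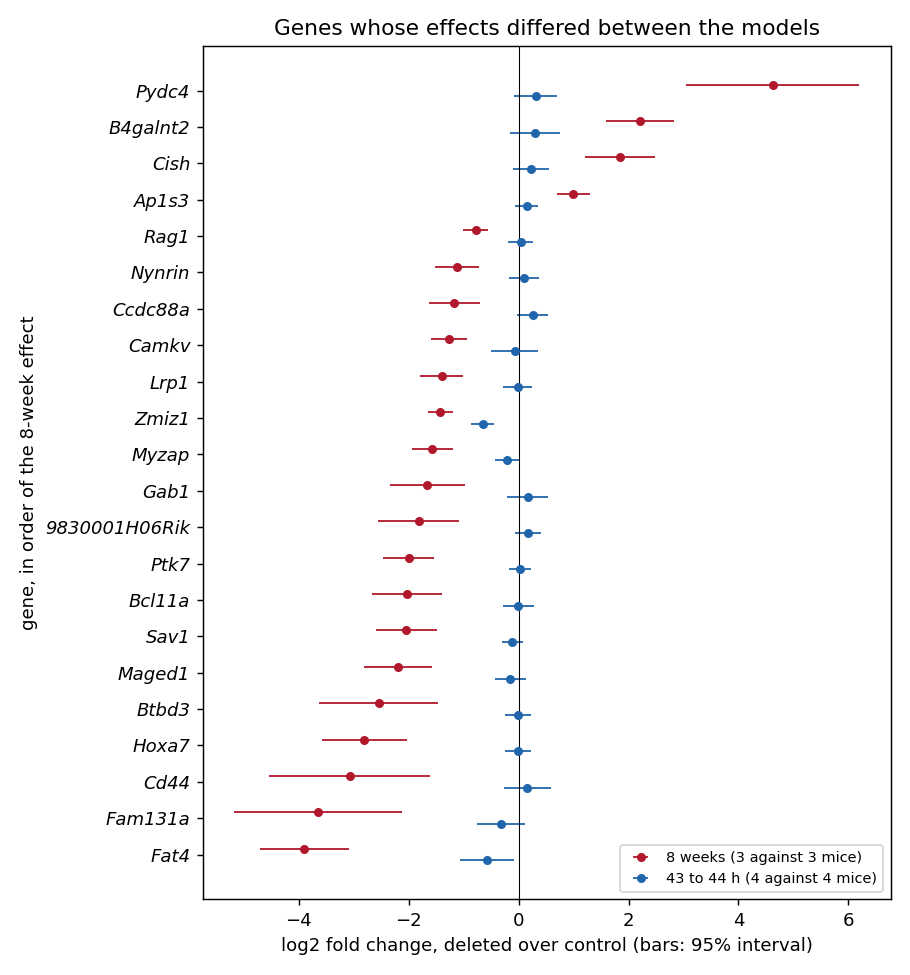
Log2 fold change of deleted over control libraries at 8 weeks (red) and 43 to 44 h (blue), with 95% intervals from edgeR, for 22 of the 23 genes whose effects differed; Tctn2, with no counts in DeltaMxCre, is not drawn. The red points run from -3.90 for Fat4 to 4.62 for Pydc4, whereas blue intervals reach across 0 for all but Zmiz1 and Fat4.

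Of the 4 genes that rose only at 8 weeks, Cish has the best known place in DN3 biology, as a STAT5-induced inhibitor of cytokine receptor signalling. Cish (chr9:107296659-107302784) was at 13.4, 8.30 and 9.77 CPM in MxCre and 57.0, 32.0 and 24.4 CPM in DeltaMxCre. The early libraries held 40.9, 36.7, 24.0 and 27.4 CPM in TamCre and 36.6, 40.6, 38.0 and 35.9 CPM in DeltaTamCre, and the ranges overlapped. Its effects were 1.85 ± 0.31 and 0.23 ± 0.15, and the difference of -1.66 ± 0.35 passed in 8 of 23 alternative settings. The region around the start site of Cish is shown because it is a known STAT5 target. RefSeq's window of 300 bases (GRCm38.p6, chr9:107296409-107296708, plus strand) holds TTCNNNGAA, the letters of a STAT element, at 2 places, which are in capitals and start 1 and 12 bases from the start site:
Cish: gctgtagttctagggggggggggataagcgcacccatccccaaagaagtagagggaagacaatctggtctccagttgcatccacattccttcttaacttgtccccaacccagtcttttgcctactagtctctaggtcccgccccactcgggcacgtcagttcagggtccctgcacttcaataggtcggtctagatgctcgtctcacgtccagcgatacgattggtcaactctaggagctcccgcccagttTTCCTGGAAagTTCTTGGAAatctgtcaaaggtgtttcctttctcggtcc
Such a match, searched on both strands, was found in 8.3% of all 32851 windows and in those of 3 of the 12 tested genes of the IL-2, IL-7 and STAT5 list that had a window, and it is a description of letters only.

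Over the 13 tested genes of the IL-2, IL-7 and STAT5 list the median log2 effect was 0.33 at 8 weeks and 0.12 at 43 to 44 h. Cish, the survival kinase Pim1 and the anti-apoptotic Bcl2 rose at 8 weeks (1.67% of all genes), 0 passed at 43 to 44 h (3 were higher at an unadjusted p under 0.05, against 8.04% of all genes), and Cish alone had a called difference. Bcl2 was at 241, 183 and 267 CPM in MxCre and 334, 354 and 347 CPM in DeltaMxCre, but at 112 to 148 CPM in TamCre and 124 to 140 CPM in DeltaTamCre. Its difference was -0.57 ± 0.18 (adjusted p = 0.414), and its 8-week effect did not pass when MxCre 2, DeltaMxCre 2 or DeltaMxCre 3 was left out (adjusted p = 0.0701 to 0.102). The receptors Il2ra (0.57 ± 0.22 and 0.23 ± 0.09) and Il7r (-0.02 ± 0.15 and -0.05 ± 0.09) did not pass in either model.

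Pydc4, a pyrin-domain gene of the interferon-inducible Ifi200 cluster (chr1:173566280-173599348), had the largest 8-week effect of the 4, 4.62 ± 0.77 against 0.32 ± 0.18. It was at 0.418, 0 and 0.169 CPM in MxCre and 3.10, 5.23 and 6.77 CPM in DeltaMxCre, whereas TamCre held 7.07 to 10.9 CPM and DeltaTamCre 9.30 to 15.5 CPM. Genes of that cluster have near-identical copies, so its counts are uncertain, and in the authors' deposited table its 8-week q-value was 0.504. B4galnt2, a glycosyltransferase of the cell surface, was at 6.75 to 15.99 CPM in MxCre, 34.9 to 65.8 CPM in DeltaMxCre and 5.51 to 12.5 CPM over the early libraries. Ap1s3, a small subunit of a clathrin adaptor, was at 42.1 to 59.8 CPM in MxCre, 103 to 110 CPM in DeltaMxCre and 19.4 to 25.7 CPM over the early libraries. Neither of the last 2 separated the early groups.

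Interferon-stimulated genes had a positive list median at 8 weeks, in the model whose groups had both received pI-pC. Of 36 tested genes 5 rose at 8 weeks, among them Trim30a, Zbp1, a nucleic acid sensor, and Ddx58, which encodes the RNA sensor RIG-I, against 1.67% of all genes. None passed at 43 to 44 h, where 3 were higher at an unadjusted p under 0.05, close to the 8.04% of all genes. The list's median log2 effect was 0.57 at 8 weeks and 0.10 at 43 to 44 h, and 33 of 36 genes had the higher effect at 8 weeks. No gene of the list had a called difference, while 11 had an unadjusted p under 0.05 with the lower effect at 43 to 44 h, against 2.87% of all genes. Trim30a, a TRIM-family gene with close copies and therefore uncertain, was at 84.0, 118 and 79.3 CPM in MxCre and 135, 178 and 174 CPM in DeltaMxCre. In the early model it was at 117, 139, 152 and 152 CPM in TamCre and 158, 155, 195 and 155 CPM in DeltaTamCre, with the groups just apart. The control levels of some members differed widely between the models. Isg15 was at 4.23 to 4.87 CPM in MxCre and 129 to 162 CPM in TamCre, and Rtp4 at 11.35 to 15.1 and 151 to 191 CPM. Parp14 was alike, at 221 to 240 and 206 to 237 CPM. Kit and inducer differ between these controls, and the part of these levels in the effects was not tested. Per library, the list's median stood 0.25, 0.76 and 0.57 log2 above the MxCre mean in DeltaMxCre, and between -0.07 and 0.42 from the TamCre mean in DeltaTamCre. Plasmacytoid and other dendritic cell markers summed to 25.3 to 43.3 CPM in MxCre and 28 to 37.2 CPM in DeltaMxCre, with 3 of the 14 at 0 in both groups. The sums were 225 to 255 CPM in TamCre and 211 to 276 CPM in DeltaTamCre. Bst2 made up most of them, with means of 23.7 CPM in MxCre, 21.7 in DeltaMxCre, 233 in TamCre and 224 in DeltaTamCre. Siglech had means of 3.87 CPM in MxCre and 3.19 CPM in DeltaMxCre. The part of such cells in the interferon-stimulated list was not tested.

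**Figure D3:**
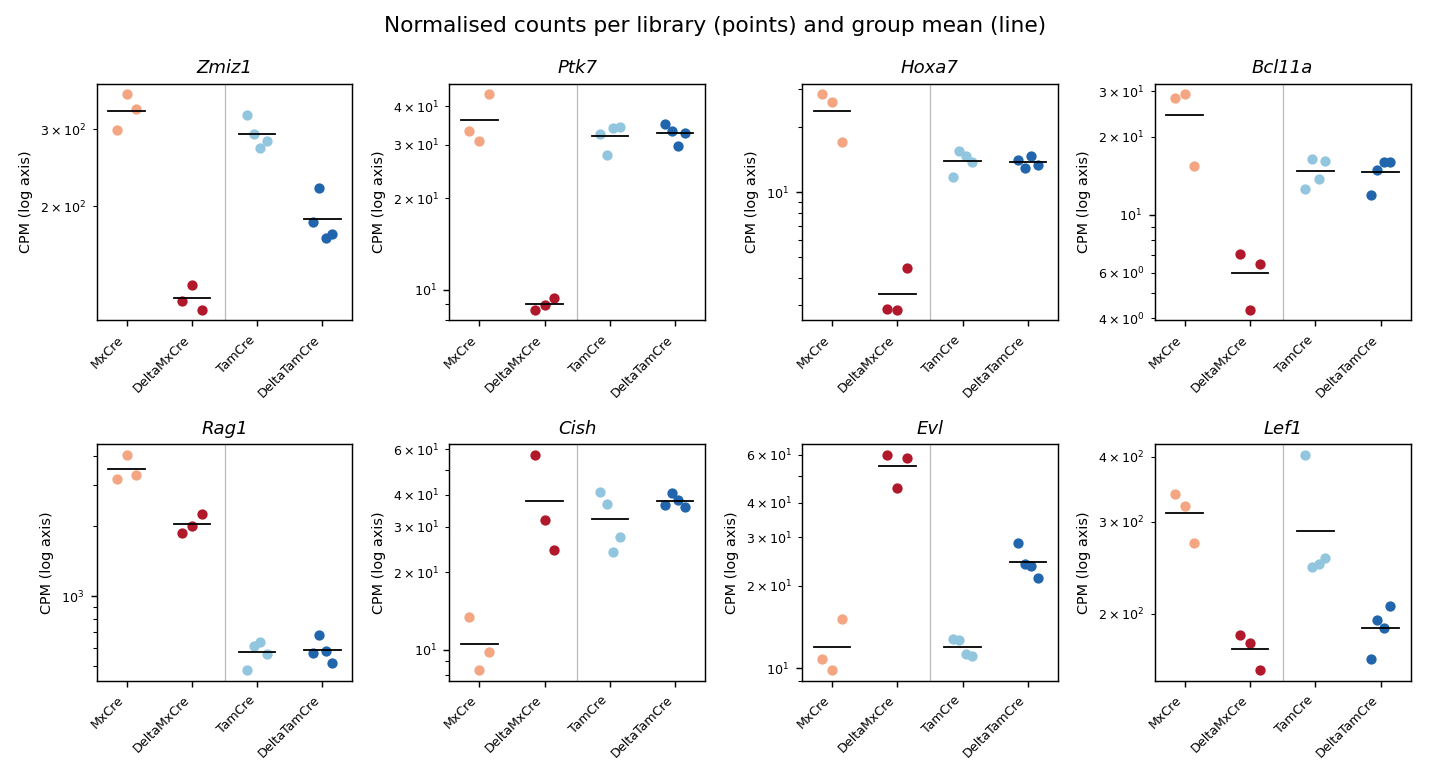
CPM per library (points, log axis, separate scale per gene) and group mean (line) for Zmiz1, 5 genes seen only at 8 weeks, Evl and Lef1. Ptk7, Hoxa7, Bcl11a and Rag1 are lower in DeltaMxCre than in MxCre and Cish is higher, with the early groups overlapping, whereas Zmiz1, Evl and Lef1 have separate groups in both models.

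Most genes called at 8 weeks had an effect of the same direction in the other model, at 43 to 44 h. Of the 397 genes called at 8 weeks and tested in all fits, 365 (91.9%) had the same sign at 43 to 44 h, against 68.2% of all 12819 genes. An unadjusted p under 0.05 with the same sign was found for 203 (51.1%), and with the opposite sign for 0, where 16% of all genes had such a p in either direction. In 118 of the 397 the early groups did not overlap, against 10.9% of all genes. The share with the same sign ranged from 87.3% to 94.5% over the alternative settings. Because the genes were chosen by their 8-week values, a smaller size at 43 to 44 h is a description: 396 of 397 were smaller.

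Genes that rose and genes that fell at 8 weeks are given apart, and the difference between them was not tested. Among 225 risers the median log2 effect was 0.77 at 8 weeks and 0.32 at 43 to 44 h, with a median of 42.7% of the late size per gene. Among 172 fallers the medians were -0.84 and -0.20, and the median share per gene was 20.3%. The sign was shared by 97.8% of risers and 84.3% of fallers. For comparison Zmiz1 itself stood at 45.7%, and 122 of the 225 risers and 131 of the 172 fallers lay below that.

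**Figure D4:**
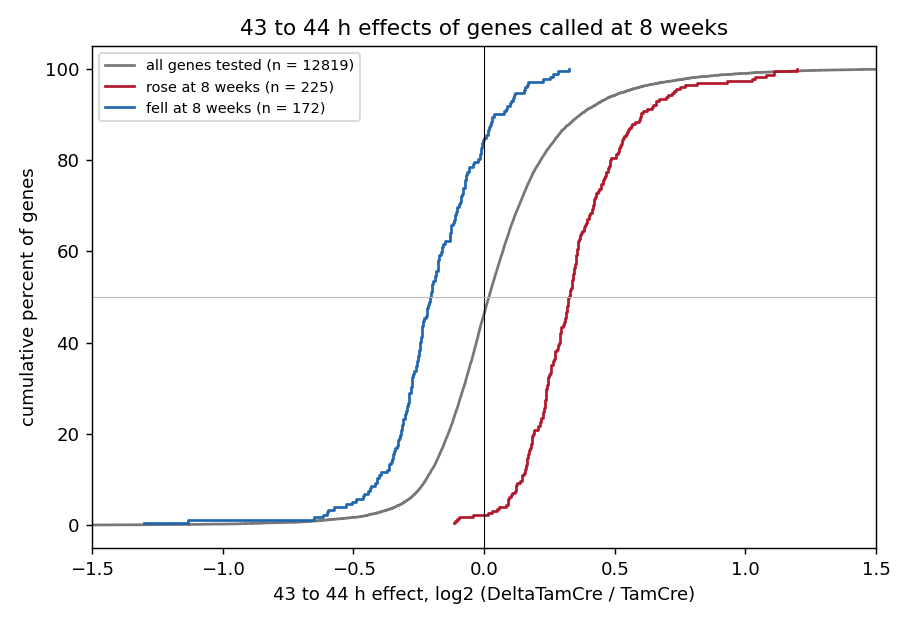
Cumulative percent of genes by their log2 effect at 43 to 44 h, for genes that rose (red) or fell (blue) at 8 weeks and for all genes tested (grey). The red curve crosses 50% at 0.32 and the blue one at -0.20, with all genes at 0.02.

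Of the 12 genes called at 43 to 44 h, 7 (58.3%) passed at 8 weeks too, against 2.94% of all genes tested at 8 weeks. These 7 made up 1.75% of the 8-week calls. They were Zmiz1, the deleted gene itself, and 6 others. Evl, an actin regulator of the Ena/VASP family (chr12:108554681-108688516), rose from 10.8, 9.80 and 15.1 CPM to 59.8, 45.4 and 58.6 CPM at 8 weeks. At 43 to 44 h it rose from 12.8, 12.7, 11.2 and 11.1 CPM to 28.6, 24.0, 23.5 and 21.3 CPM. The effects were 2.20 ± 0.29 and 1.03 ± 0.11 (adjusted p = 6.3e-05 and 0.00872). Ggt5, a gamma-glutamyl transferase that cleaves leukotrienes, was at 2.48 to 4.18 and 11.9 to 14.4 CPM in the late groups and at 2.90 to 3.42 and 5.33 to 8.42 CPM in the early ones. Both genes were thus separated in both models, with the smaller change early. Acsf2, an acyl-CoA synthetase, the tetraspanin Cd53 and Jakmip1, which binds JAK kinases and microtubules, also rose in both models. Qsox2, a sulfhydryl oxidase, fell in both, from 42.7 to 46.8 down to 17.3 to 27.3 CPM at 8 weeks and from 60.0 to 70.7 down to 42.5 to 49.9 CPM at 43 to 44 h. The 8-week calls of Ggt5 and Jakmip1 were lost without any 1 of the 6 libraries and without any but MxCre 1, respectively (adjusted p of 0.0501 to 0.133 for Ggt5 and 0.0556 to 0.0954 for Jakmip1).

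The 5 genes called at 43 to 44 h only, without a called difference, were Gzma, Itgb3, Myl4, Pgam2 and Il31ra, named after their values were seen. Gzma, a cytotoxic granule protease, fell from 209, 212, 218 and 193 CPM to 160, 111, 122 and 122 CPM. Its late effect was about the same size, -0.77 ± 0.23 against -0.69 ± 0.11, but did not pass (adjusted p = 0.1), with 166, 88.1 and 197 CPM in MxCre against 100, 94.1 and 71.2 CPM in DeltaMxCre. Of the 18 markers of NK, innate lymphoid and cytotoxic cells, Gzma among them, 15 had a mean under 1 CPM in TamCre and 14 in DeltaTamCre, 5 of them without a count in each group, and the granzyme gene Gzmb and the perforin gene Prf1 had means of at most 0.358 CPM in all 4 groups. Nkg7, a granule protein, had means of 69.5 CPM in TamCre and 87.6 CPM in DeltaTamCre, and of 11.6 and 19.2 CPM in the late groups. The part of such cells in the values of Gzma was not tested. Itgb3, an integrin beta chain, had an effect of 0.68 ± 0.10 early and 0.68 ± 0.24 late. Pgam2, a muscle form of phosphoglycerate mutase, had a late effect near 0 (-0.04 ± 0.44) beside an early one of -0.87 ± 0.13. It lay at 40.5, 38.7, 36.8 and 37.4 CPM in TamCre and 16.5, 19.3, 26.2 and 22.04 CPM in DeltaTamCre, but at 4.97 to 9.30 CPM in MxCre and 5.67 to 6.85 CPM in DeltaMxCre. Its difference of -0.88 ± 0.45 did not pass (adjusted p = 0.757). Myl4, a myosin light chain (0.70 ± 0.10 early, 0.18 ± 0.65 late), had a late 95% interval from -1.14 to 1.51. The cytokine receptor gene Il31ra was at 7.11 to 7.99 CPM in TamCre and 13.6 to 16.9 CPM in DeltaTamCre, and at 2.258 to 2.498 CPM in MxCre and 9.12 to 12.5 CPM in DeltaMxCre. Its groups were separate in both models, with effects of 1.00 ± 0.11 early and 2.16 ± 1.00 late (unadjusted p = 0.0479, adjusted p = 0.297 at 8 weeks).

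Some genes called at 8 weeks had an early effect of more than the 45.7% share of Zmiz1 without passing at 43 to 44 h. Lef1, which with Tcf7 encodes the HMG-box factors of T lineage commitment, was at 339, 322 and 274 CPM in MxCre and 182, 176 and 156 CPM in DeltaMxCre. Its early values were 403, 246, 250 and 256 CPM in TamCre and 164, 195, 188 and 207 CPM in DeltaTamCre, with TamCre 1 far above the others. The effects were -0.87 ± 0.12 and -0.62 ± 0.16, and the difference of 0.21 ± 0.20 had a 95% interval of -0.21 to 0.62. Tcf7 fell at 8 weeks by 0.50 ± 0.11 and had an early effect of -0.32 ± 0.08 (adjusted p = 0.125). Its early groups did not overlap, at 1703 to 2152 against 1475 to 1529 CPM, and its 8-week effect did not pass when DeltaMxCre 2 or DeltaMxCre 3 was left out (adjusted p = 0.0529 to 0.0574). Trp53inp1, a p53-induced gene, had effects of 0.54 ± 0.12 and 0.53 ± 0.10, and Lpp, an adhesion protein, of 0.58 ± 0.13 and 0.58 ± 0.10. For these 2, chosen after their values were seen, the 95% intervals of the difference were -0.38 to 0.28 and -0.40 to 0.31.

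Myc, the target named in the title, did not pass in either model by edgeR, while the authors' deposited table lists it as lower in both, at a fold of 0.566 (q-value 0.00251) at 8 weeks and 0.715 (q-value 0.00246) at 43 to 44 h. It was at 237, 135 and 106 CPM in MxCre and 108, 76.7 and 79.1 CPM in DeltaMxCre, which overlapped. In TamCre it was at 553, 604, 549 and 568 CPM and in DeltaTamCre at 402, 341, 501 and 453 CPM, which did not overlap. The effects were -0.86 ± 0.28 (adjusted p = 0.151) and -0.42 ± 0.11 (adjusted p = 0.133), and the difference of 0.39 ± 0.30 had a 95% interval from -0.24 to 1.02. The MYC target and nucleolar list fell at 8 weeks in 10 of 60 genes, with Nop56, a core protein of box C/D particles, at -0.62 ± 0.11, against 1.27% of all genes called lower. None passed at 43 to 44 h, where 42 of 60 had an unadjusted p under 0.05 and were lower, against 7.96% of all genes. The list medians were -0.36 and -0.26, and no member had a called difference. TamCre 1 was the highest early library, and its part in the early median was not tested: the list stood at 0.18 in TamCre 1 and -0.15 to 0.02 in the other TamCre libraries, and at -0.38 to -0.16 in DeltaTamCre.

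Cytosolic ribosomal proteins behaved in the same manner. Of 77 tested genes 15 fell at 8 weeks (1.27% of all genes), none passed at 43 to 44 h, and 68 had an unadjusted p under 0.05 there, all lower (7.96% of all genes). Medians were -0.33 and -0.21 log2. Rpsa, a protein of the small subunit, was at 3588, 3634 and 5000 CPM in MxCre and 2892, 2117 and 2444 CPM in DeltaMxCre. It was at 3541 to 4279 CPM in TamCre and 2979 to 3289 CPM in DeltaTamCre, so both models were separated. Ribosomal protein genes have many processed copies, so single counts are uncertain. The 4 TamCre libraries had list medians of -0.05 to 0.07 and the 4 DeltaTamCre libraries -0.25 to -0.18, with TamCre 1 the highest of the controls. Oxidative phosphorylation genes had medians of -0.23 and -0.17 with 0 of 35 called at either time and 21 lower at an unadjusted p under 0.05 at 43 to 44 h (7.96% of all genes).

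Cholesterol synthesis was a list whose late and early medians stood apart, -0.49 against -0.06. Of 22 genes 3 fell at 8 weeks (1.27% of all genes), among them Insig1, a brake on the pathway. At 43 to 44 h 0 passed, with 1 higher and 3 lower at an unadjusted p under 0.05, against 8.04% and 7.96% of all genes. MxCre 3 had a list median of 0.50 against -0.39 and -0.12 in the other MxCre libraries, and its part in the late median was not tested. No gene of the list had a called difference.

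**Figure D5:**
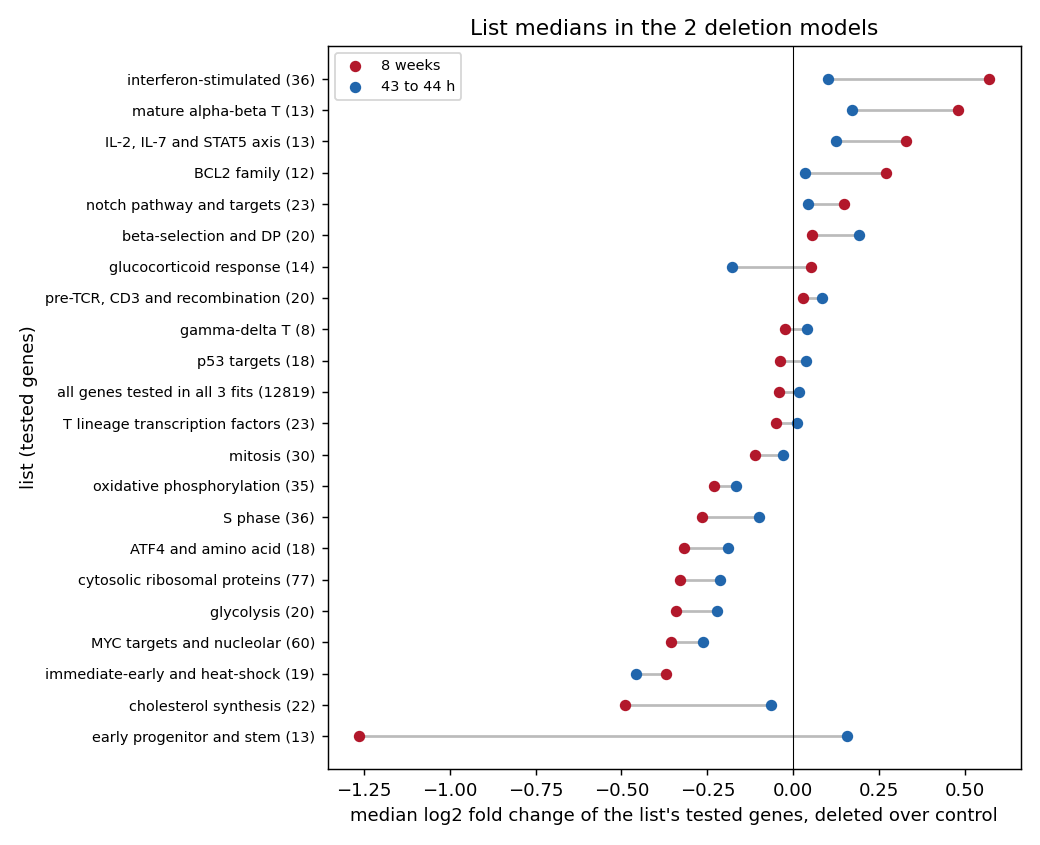
Median log2 effect at 8 weeks (red) and 43 to 44 h (blue) of each list with at least 8 tested genes, number of genes in brackets, beside all genes tested. Early progenitor genes stand apart at -1.26 late and 0.16 early, with 11 of the list's 20 genes under a mean of 1 CPM in MxCre. The MYC, ribosomal and glycolysis lists lie between -0.36 and -0.33 late and between -0.26 and -0.21 early.

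Of 23 tested Notch pathway genes Trib2 and Deptor rose at 8 weeks (1.67% of all genes) and none fell. None passed at 43 to 44 h, where 5 were higher and 1 lower at an unadjusted p under 0.05, against 8.04% and 7.96% of all genes. Trib2, a pseudokinase and Notch1 target, was at 24.4, 29.3 and 12.98 CPM in MxCre and 75.6, 55.0 and 52.1 CPM in DeltaMxCre. It was at 33.6, 23.3, 24.0 and 24.8 CPM in TamCre and 27.2, 29.9, 37.2 and 31.8 CPM in DeltaTamCre, with only TamCre 1 among the deleted libraries. The difference of -1.24 ± 0.30 did not pass (adjusted p = 0.117). Dtx1, another target and a ubiquitin ligase, had effects of 1.12 ± 0.31 (adjusted p = 0.1) and 0.24 ± 0.11. Notch1 itself (-0.02 ± 0.10 and -0.04 ± 0.11), Hes1 (0.18 ± 0.19 and -0.08 ± 0.11), Ptcra (0.15 ± 0.14 and 0.08 ± 0.07) and Notch3 (-0.36 ± 0.13 and -0.10 ± 0.11) did not pass in either model. The 95% interval of the Notch1 difference ran from -0.39 to 0.26.

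S phase (36 genes) and mitosis (30 genes) had no call in any comparison, with 8 and 0 lower at an unadjusted p under 0.05 at 8 weeks (8.71% of all genes) and 3 and 0 at 43 to 44 h (7.96%). Of 18 tested p53 targets 1, Trp53inp1, rose at 8 weeks, against 1.67% of all genes, and none fell. The list's median log2 effects were -0.04 and 0.04, with 10 of the 18 below 0 at 8 weeks. Cdkn1a, the cell cycle inhibitor, had effects of -0.50 ± 0.21 and 0.06 ± 0.16 that did not pass. Of 12 BCL2 family genes Bcl2 and Bmf, a pro-apoptotic BH3 protein, rose at 8 weeks, against 1.67% of all genes. Glycolysis genes had medians of -0.34 and -0.22, with 3 of 20 called lower at 8 weeks (1.27% of all genes), and immediate-early and heat-shock genes of -0.37 and -0.46, with 0 of 19 called at either time. For the last list TamCre 1 stood at 1.19 log2 against -0.48 to -0.30 in the other controls, and its part in the early median was not tested.

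Markers of mature alpha-beta T cells summed to 808 to 897 CPM in MxCre and 1055 to 1413 CPM in DeltaMxCre, and to 971 to 1019 and 1028 to 1354 CPM in TamCre and DeltaTamCre. Gamma-delta markers summed to 119 to 151 CPM in MxCre and 198 to 257 CPM in DeltaMxCre, but to 220 to 312 and 209 to 418 CPM in the early groups. Cd163l1 and 5830411N06Rik, scavenger receptor genes of gamma-delta cells, rose at 8 weeks (1.37 ± 0.33 and 1.42 ± 0.30), with early effects of -0.11 ± 0.28 and 0.12 ± 0.44. Their part in the late response was not tested. B cell, myeloid and erythroid marker sums were at most 57.9 CPM in every library, with overlapping MxCre and DeltaMxCre groups. The early groups did not overlap for myeloid markers, at 11.01 to 17.8 CPM in TamCre against 20.2 to 23.6 CPM in DeltaTamCre, nor for B cell markers, at 40.5 to 45.7 against 45.9 to 57.9 CPM. Their part in the early effects was not tested.

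The authors' deposited table, made with another method, listed 1271 genes with a q-value under 0.1 at 8 weeks and 1514 at 43 to 44 h, more at the early time, unlike the edgeR counts. Of these, 419 were on both lists, which is 33% of the first and 27.7% of the second, and 409 of the 419 had the same direction. All 22 genes seen only at 8 weeks were in that table, 20 of them with a q-value under 0.1 at 8 weeks. At 43 to 44 h the table gave a q-value under 0.1 to 4 of the 22, namely Cish, Ap1s3, Fat4 and Pydc4. The 22 were chosen by their calls in the same libraries, so both counts are a description and no separate evidence. The shares of all genes in that table are not given here.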

How the data were processed

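RNA was extracted from sorted cells, per the labels' protocols. Per the submitters' processing notes, the tools were FastQC 0.10.0, TopHat2 2.0.9, Bowtie2 2.1.0.0, Cufflinks and Cuffdiff 2.1.1, with the build mm10; no source used here gives the annotation or strand setting, which leaves overlapping, antisense and copied genes uncertain. The values tested are the deposited expected counts per gene, 98.4% of them whole numbers. The authors' deposited table of comparisons, per the file headers, also gives mean FPKM per group, a ratio (fold) of deleted to control, and q-values.

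Counts of 23284 genes were rounded to whole numbers. They were filtered with filterByExpr by group, scaled by TMM and tested with the robust quasi-likelihood method of edgeR 4.0.16 (R 4.3.3), with p-values adjusted after Benjamini and Hochberg and calls made under 0.05. The 8-week effect came from the 12 SMARTer libraries, 6 of them from other groups that add to the estimate of spread, the 43 to 44 h effect from the 8 TruSeq libraries, and the difference from all 20. A gene is seen in 1 model only if its effect there and the difference both passed. The step was tested on simulated counts. Coordinates came from RefSeq by gene ID on GRCm38.p6, the same build as mm10, for 23191 genes.

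Among the genes seen in 1 model, those named had to reach 5 CPM and to have groups that did not overlap, up to 8 per direction at 8 weeks; fixed genes such as Myc and Notch1, and up to 2 members per list with a called difference, were added. Of 666 members of 28 lists, 660 were found, 6 of them under other symbols. Members and lists were chosen with earlier results of these data known. Replicate libraries were compared in pairs, and none was a copy of another. Alternatives were RLE and upper-quartile scaling, no filter on low counts, DESeq2 1.42.0, limma 3.58.1 voom with kit weights, only the 4 groups of the contrast, TruSeq libraries thinned to 17000089 counts, the replicate number as a block, leaving out each library, and, chosen after seeing the data, a spread estimated within each kit. Some genes are not reported here.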

Additional observations from a re-analysis of the deposited data

Results flagged for a closer look

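For 23 genes the test of the difference between the 43 to 44 h and the 8-week effect passed, and each is given as the early minus the late log2 effect. The largest were those of Fat4 (3.29), Fam131a (3.28), Cd44 (3.19), Hoxa7 (2.76), Btbd3 (2.49), Maged1 (2.00), Ptk7 (1.99), Bcl11a (1.98), 9830001H06Rik (1.94) and Sav1 (1.89), beside Tctn2 (9.03), whose fitted value rests on a group without counts and is no bound. Smaller positive differences were those of Gab1 (1.78), Ccdc88a (1.39), Lrp1 (1.35), Myzap (1.31), Nynrin (1.18), Camkv (1.15), Rag1 (0.78) and Zmiz1 (0.73). The negative ones were those of Pydc4 (-4.39), B4galnt2 (-1.96), Cish (-1.66) and Ap1s3 (-0.89).

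In 11 of 150 groups of 4 libraries, 1 library was far from the other 3 by Dixon's test, which flags about 1 group in 20 by chance. TamCre 1 was the library in 6 of them, with Lef1 at 403 CPM, Trib2 at 33.6 CPM, Fam131a at 4.77 CPM, and list medians of 1.19 log2 for immediate-early and heat-shock genes, 0.15 for T lineage transcription factors and -0.20 for early progenitor genes. DeltaTamCre 2 stood out for Fat4 (4.87 CPM) and Nynrin (22.9 CPM), TamCre 4 for Lrp1 (44.5 CPM), TamCre 2 for the S phase list (-0.12) and TamCre 3 for the IL-2, IL-7 and STAT5 list (-0.0672).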

How the results depend on the processing

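Under every setting run, the count of genes seen only at 43 to 44 h and the count with opposite signs was 0. With only the 4 groups in the fits, 183 genes passed at 8 weeks and 13 were seen only then. DESeq2 gave 79 different effects, 691 calls at 8 weeks, 545 at 43 to 44 h and 62 genes seen only at 8 weeks; limma voom gave 5 different effects and 5 genes seen only at 8 weeks. Same-numbered libraries did not deviate together (correlations of -0.60 to 0.02), so no pairing by number was seen. With so few libraries per group this cannot show that the samples were unpaired. With the replicate block 9 effects differed, 9 genes were seen only at 8 weeks, 0 passed at 43 to 44 h and 496 at 8 weeks. Leaving out 1 library gave 11 to 52 different effects, 138 to 427 calls at 8 weeks, 0 to 12 at 43 to 44 h and 10 to 48 genes seen only at 8 weeks. Differences near 0 changed sign without passing: Gzma (0.03) was -0.02425 with voom and -0.003014 with the block, and Itgb3 (-0.03) was 0.08335 in thinned libraries and 0.007441 with the spread within each kit. With libraries left out, the difference ranged from -0.005745 to 0.6297 for Myc, -0.1937 to 0.3148 for Gzma, -0.106 to 0.04393 for Itgb3, -0.2633 to 0.03175 for Ptcra, -0.2111 to 0.1832 for Il7r and -0.119 to 0.04722 for Notch1. Of 1081 recomputed differences of named genes, 891 kept direction and call, 167 lost the call, 4 gained it and 19 changed sign. The cause of these changes was not tested. The median SE of the difference (0.29) lay near that of the shallower 8-week libraries (0.26) and above that of the 43 to 44 h libraries (0.11).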
